A study of Mus musculus with 12 samples.

Results

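The collagen genes were the 44 genes of the tables whose name is Col, a type number, the letter a and a chain number, out of 55416 gene identifiers listed for every library. They comprised 11 fibrillar collagens, 8 collagens of basement membranes and 25 other collagens. Of these, 27 had a mean of at least 1 TPM, a length-normalised relative transcript abundance, in at least 1 group and were tested, among 15381 tested genes in all. The tested members were 8 fibrillar, 5 basement membrane and 14 other collagens.

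Collagens are secreted proteins whose chains wind around each other into triple helices. Fibrillar collagens such as types I, III and V assemble into the rope-like fibrils of connective tissue and are made mainly by fibroblasts. Type IV collagen forms the sheet-like network of basement membranes under epithelia and around blood vessels, where the multiplexins Col15a1 and Col18a1 also lie. In solid tumors the fibrillar network is a known product of host stroma, while epithelial cells and vessels both deposit type IV collagen.

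RNA was measured by sequencing in HM1 cells, a mouse ovarian cancer line, and in tumors of HM1 cells. Cells and tumors carried either a control short hairpin RNA (genotype labelled wild type) or a hairpin against St3gal3, which encodes an enzyme that adds sialic acid to glycans. There were 3 libraries in each of the 4 groups: control culture, knockdown culture, control tumors and knockdown tumors. No label states that a group's 3 samples were separate cultures or separate animals. The p-values therefore set group differences only against the spread among these samples, and that spread may be technical. The host strain, the tumor site, the age of the hosts and whether the knockdown line is 1 clone are not given in the sources used here.

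The St3gal3 level was 9.59, 12.52 and 12.93 TPM in control culture and 1.52, 1.25 and 1.83 TPM in knockdown culture. In tumors it was 14.0, 15.39 and 15.36 TPM with the control hairpin and 7.28, 5.87 and 5.76 TPM with the St3gal3 hairpin, so the labels and the targeted gene went together in all 12 libraries. The keratins Krt8, Krt18 and Krt19 were each at 630.8 TPM or more in every library, whereas the epithelial adhesion gene Epcam stayed at or below 0.5 TPM. TPM keeps no read number, so sequencing depth is unknown. Culture and tumor tables list different sets of genes, so tissue and processing run cannot be told apart.

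Several collagen genes are genomic neighbours. In the GENCODE annotation of build GRCm38, Col4a1 and Col4a2 lie head to head on chromosome 8, and Col4a5 lies head to head with Col4a6 on chromosome X. Col3a1 and Col5a2 lie tail to tail on chromosome 1, and Col6a1 and Col6a2 follow each other on chromosome 10. RefSeq promoter windows (build GRCm38.p6) were matched by symbol for 35 of the 44 genes. Col1a1, Col5a2 and Col12a1 are among the genes with no window in that table.

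The sequences below are those of the 3 collagens called between tumor groups and of Col4a2, which shares its start region with Col4a1 and was not called, with Col1a2 and Col3a1 as the most abundant fibrillar members that have a window. The first is chr8:11312801-11312830 on the plus strand, and its capitals mark the 22 bases that the annotated Col4a1 and Col4a2 transcripts share at their opposed starts.
Col4a1 and Col4a2: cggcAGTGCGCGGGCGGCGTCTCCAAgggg
The other sequences are the 250 bases before each gene's annotated start, 5′ to 3′ on the gene's strand. They are chrX:141475169-141475418 (plus) for Col4a5, chr10:77166531-77166780 (minus) for the first of the Col18a1 windows, chr6:4505368-4505617 (plus) for Col1a2 and chr1:45311288-45311537 (plus) for Col3a1. Capitals mark matches, on either strand, of 3 motifs: the letters CCAAT, those of the GC box (GGGCGG), and those of the TATA box in the form TATAAA.
Col4a5: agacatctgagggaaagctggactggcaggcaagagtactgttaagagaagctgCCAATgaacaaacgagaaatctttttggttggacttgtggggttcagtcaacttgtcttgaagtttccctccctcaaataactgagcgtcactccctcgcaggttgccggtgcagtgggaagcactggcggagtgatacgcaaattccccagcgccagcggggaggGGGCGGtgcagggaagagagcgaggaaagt
Col18a1: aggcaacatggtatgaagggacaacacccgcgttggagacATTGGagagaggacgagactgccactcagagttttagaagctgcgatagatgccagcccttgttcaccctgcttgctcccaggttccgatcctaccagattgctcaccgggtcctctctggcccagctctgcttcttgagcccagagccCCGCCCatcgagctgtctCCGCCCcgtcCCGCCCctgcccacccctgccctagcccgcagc
Col1a2: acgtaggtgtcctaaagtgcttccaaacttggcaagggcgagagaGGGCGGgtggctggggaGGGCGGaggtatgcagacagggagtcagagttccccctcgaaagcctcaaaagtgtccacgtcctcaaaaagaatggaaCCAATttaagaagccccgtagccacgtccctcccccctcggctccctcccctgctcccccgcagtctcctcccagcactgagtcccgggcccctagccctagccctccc
Col3a1: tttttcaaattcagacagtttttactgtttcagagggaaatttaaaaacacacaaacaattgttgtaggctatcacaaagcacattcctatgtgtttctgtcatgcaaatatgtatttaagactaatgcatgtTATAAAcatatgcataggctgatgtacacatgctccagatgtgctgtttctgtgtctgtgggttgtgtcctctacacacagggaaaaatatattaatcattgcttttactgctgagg

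The letters GGGCGG or their complement CCGCCC stood in 22 of 38 collagen windows of 250 bases and in 32.7% of 32851 windows of all genes. CCAAT or ATTGG stood in 13 of the 38 and in 33.8% of all windows, and TATAAA or TTTATA in 5 of the 38 and in 12.4% of all. In the basement membrane class, 4 of 8 windows held GGGCGG, 4 held CCAAT and 0 held TATAAA. These are matches of letters and not measured binding sites, and GGGCGG matches depend on base composition, which was not matched.

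In culture, most collagen transcript of HM1 cells came from basement membrane genes. Summed over all members, collagen transcripts made up 244 to 330 TPM in the 6 culture libraries. Basement membrane genes held 76.1 to 82.8% of that sum, other collagens 16.2 to 22.1% and fibrillar genes 1.05 to 2.10%. The levels of 6 members had a mean of at least 10 TPM in a culture group, namely Col18a1, Col4a1, Col4a2, Col7a1, Col8a1 and Col4a5.

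Col18a1, whose C-terminal fragment is known as endostatin, was the highest collagen in culture. Its level was 110.67, 145.39 and 138.68 TPM in control culture and 136.71, 128.81 and 105.24 TPM in knockdown culture, and the groups overlapped. Col4a1, a chain of the most widespread type IV network, stood at 42.54, 63.27 and 62.67 TPM against 61.93, 60.07 and 44.65 TPM. Its partner chain Col4a2 stood at 31.49, 43.31 and 46.92 TPM against 42.52, 44.75 and 32.96 TPM, and both chains were lowest in the same libraries, control culture 1 and knockdown culture 3. Col4a5, a chain of a second type IV network, stood at 8.71, 10.88 and 13.73 TPM against 9.77, 12.37 and 8.46 TPM.

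Col7a1, which forms the fibrils that anchor basement membranes to the tissue beneath, was at 26.14, 28.16 and 35.89 TPM in control culture and 34.81, 43.19 and 32.86 TPM in knockdown culture. Col8a1, a short-chain network collagen, was at 15.44, 17.33 and 17.58 TPM against 16.36, 14.78 and 13.46 TPM. The other members at 1 TPM or more in a culture group were Col5a3 (2.31 to 5.54 TPM over the 6 libraries), Col16a1 and Col6a5. The type I and type III genes were almost absent: Col1a1, Col1a2 and Col3a1 stayed at or below 0.84 TPM in every culture library.

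**Figure D1:**
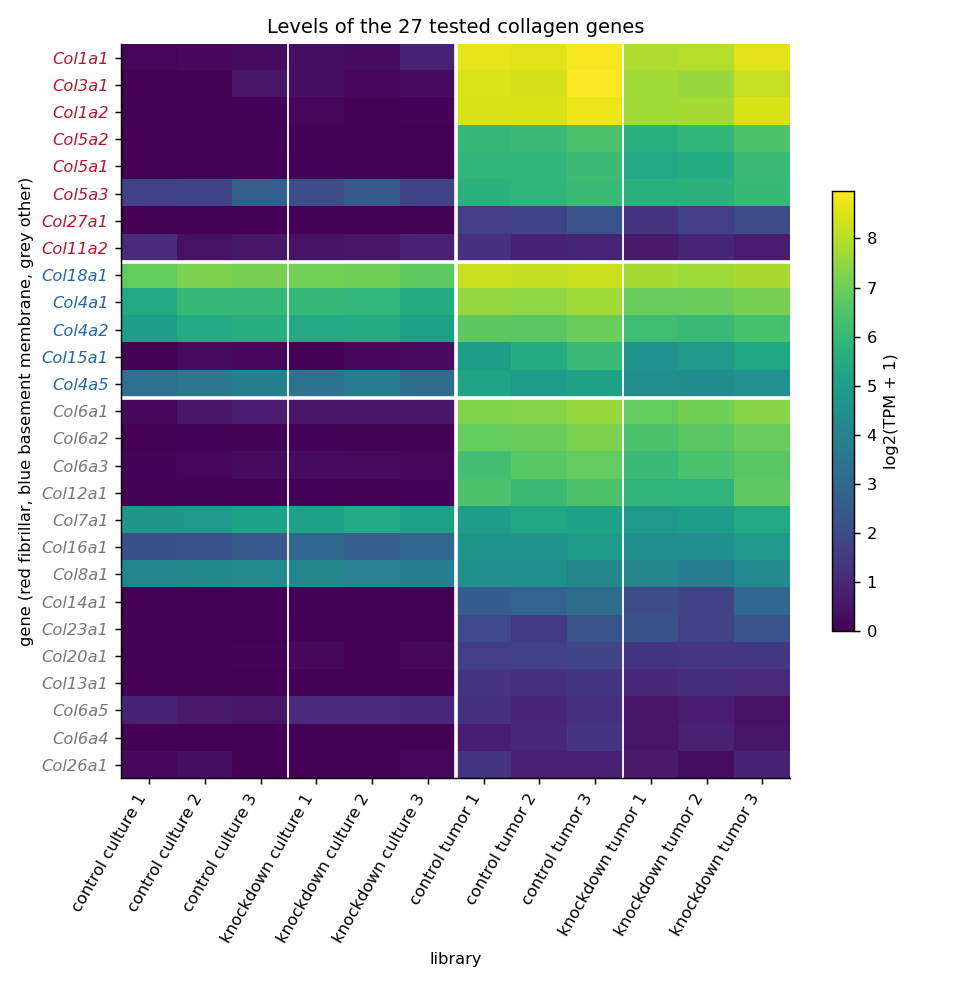
Levels of the 27 tested collagen genes (rows, grouped by class) in the 12 libraries (columns), as log2(TPM + 1) in colour. Basement membrane genes other than Col15a1 are present in culture and tumors, whereas Col1a1, Col1a2 and Col3a1 pass from at most 0.84 TPM in culture to at least 188.66 TPM in tumors.

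Tumors held 8.82 times the mean collagen sum of culture with the control hairpin and 6.43 times with the St3gal3 hairpin, in a different mix. The summed level was 2413 to 2992 TPM in control tumors, against 1654 to 2343 TPM in knockdown tumors. In control tumors the fibrillar class held 51.1 to 54.0% of collagen TPM and the basement membrane class 24.6 to 26.7%. In knockdown tumors these shares were 47.8 to 52.7% and 21.8 to 27.3%, which overlap those of control tumors. The mean basement membrane sum was 2.82 times that of culture with the control hairpin and 2.03 times with the St3gal3 hairpin.

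**Figure D2:**
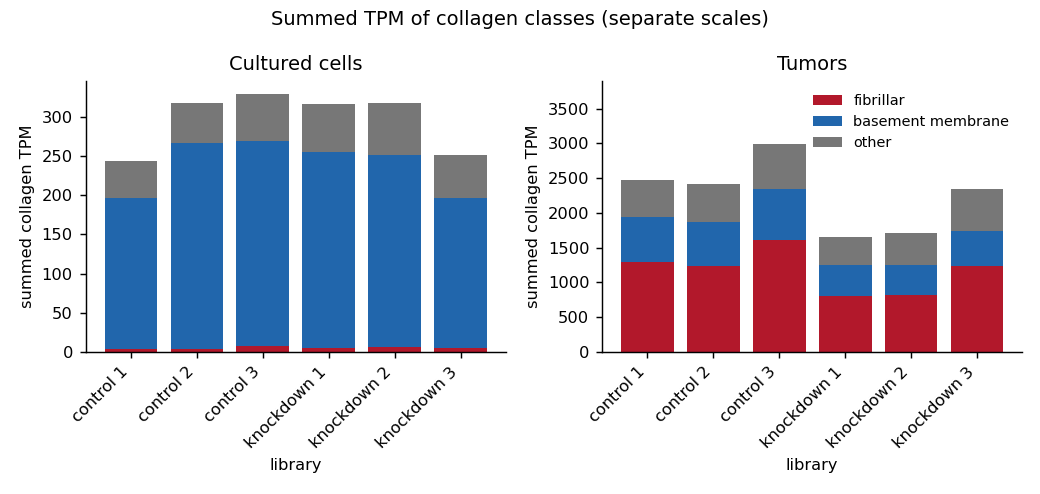
Summed TPM of fibrillar, basement membrane and other collagens (stacked bars from 0) in each culture library (left) and tumor (right), on separate scales. Culture sums lie between 244 and 330 TPM and are mostly basement membrane collagen, and tumor sums lie between 1654 and 2992 TPM, with fibrillar collagen as the largest class at 47.8 to 54.0%.

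Fibrillar genes made up the largest part of the tumor gain. Col1a1 and Col1a2, the chains of type I collagen, reached 364.29 to 460.84 TPM and 341.88 to 429.39 TPM in control tumors. Col3a1, the type III chain of pliable tissues and granulation tissue, was at 354.75, 333.5 and 499.42 TPM there. The type V chains Col5a1, Col5a2 and Col5a3, which sit inside type I fibrils and set their width, had control tumor means of 63.0, 71.4 and 59.0 TPM (SD 6.15, 9.98 and 6.66, n = 3 each). Of these, Col5a3 alone was also above 1 TPM in every culture library. Col27a1 was lower, at 2.22 to 3.94 TPM in control tumors, and was listed at 0 in all control culture libraries.

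Type VI collagen, a beaded filament network around cells, was the main part of the remaining class. Col6a1 was at 154.58, 156.78 and 189.89 TPM in control tumors, Col6a2 at 113.58, 119.54 and 147.44 TPM, and Col6a3 at 76.78, 98.2 and 111.47 TPM. In culture none of these 3 chains exceeded 0.6 TPM. The fibril-associated collagen Col12a1, which coats type I fibrils, was at 67.54 to 86.76 TPM in control tumors, against at most 0.05 TPM in culture. Col14a1, of the same group, was at 5.1 to 7.9 TPM. Col15a1 was the only basement membrane member that was below 1 TPM in culture and above 10 TPM in tumors, at 31.31, 46.34 and 64.23 TPM in control tumors.

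In the test of control tumors against control culture, limma called 24 of the 27 tested collagens higher and 0 lower, beside 38.5% and 23.9% of all tested genes. However, 18 of the 27 reached the minimum of 1 TPM in tumors only, so a difference from culture follows from the filter and their count is no support. Of the 9 members at 1 TPM or more in a culture group, 7 were called higher and 2, Col7a1 and Col8a1, were not called. The largest differences on the log2(TPM + 1) scale were 8.49 for Col1a2 (SE 0.113), 8.46 for Col1a1 (SE 0.111) and 8.43 for Col3a1 (SE 0.192). The median difference was 6.07 for fibrillar, 1.52 for basement membrane and 1.82 for other collagens, beside 0.17 for all tested genes. Of the 8 fibrillar members, 7 passed the filter through tumors only. The fibrillar median was 3.81 with no filter and 9.18 with a pseudocount of 0.1, and that of other collagens 0.90, 4.08 and, with quantile normalization, 1.11.

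Among the collagens that HM1 cells already expressed in culture, Col5a3 rose by 3.81 (SE 0.264) on the log2(TPM + 1) scale in tumors with the control hairpin. Col4a1 rose by 1.75 (SE 0.161), Col4a5 by 1.52 (SE 0.167), Col4a2 by 1.40 (SE 0.150) and Col18a1 by 1.16 (SE 0.107) on the same scale. Col16a1, a fibril-associated collagen, rose by 2.42 (SE 0.127), from 3.59 to 4.61 TPM in control culture to 24.09 to 28.89 TPM in control tumors. Col7a1 differed by 0.25 (SE 0.144, limma adjusted p = 0.169) and Col8a1 by 0.21 (SE 0.128, limma adjusted p = 0.191).

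With the St3gal3 hairpin, limma called 23 collagens higher in tumors than in culture, beside 34.6% of all tested genes, and 1 lower, beside 26.9%. The lower one was Col6a5, a long chain of type VI collagen, by 0.52 on the log2(TPM + 1) scale (limma adjusted p = 0.0075). With the control hairpin Col6a5 was higher by 0.50 (limma adjusted p = 0.0262), although that difference was -0.42 with quantile normalization. The class medians were 5.82, 0.95 and 1.49 for fibrillar, basement membrane and other collagens, beside 0.078 for all tested genes. In bulk tumors, more or fewer cells of a type and more or less RNA per cell cannot be told apart.

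**Figure D3:**
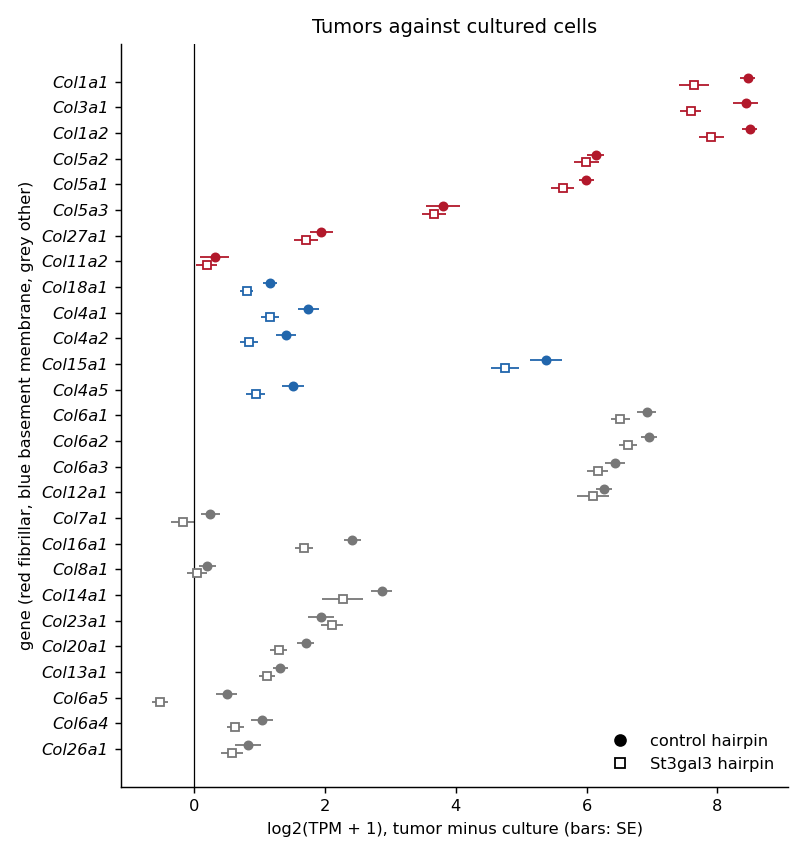
Tumor minus culture on the log2(TPM + 1) scale (horizontal axis) for each tested collagen, with the control hairpin (filled circles) and the St3gal3 hairpin (open squares); bars are SE, n = 3 libraries per group. Col1a1, Col1a2, Col3a1, Col6a1, Col6a2 and Col6a3 lie between 6.17 and 8.49, the type IV genes and Col18a1 between 0.81 and 1.75, and Col7a1 and Col8a1 between -0.17 and 0.25.

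The ratio of the paired type IV chains was higher in every tumor than in every culture library. Col4a1 over Col4a2 was 1.34 to 1.46 in the 6 culture libraries and 1.65 to 1.83 in the 6 tumors, with no overlap. The mean was 1.38 in both culture groups and 1.75 and 1.73 in control and knockdown tumors. A ratio within a library does not depend on the scaling of the library. It can still depend on how the values were computed, and tissue and processing run cannot be told apart here. Col1a1 over Col1a2 was 1.07 to 1.17 in control tumors and 1.11 to 1.14 in knockdown tumors. Col6a1 over Col6a2 averaged 1.32 and 1.35. Col5a1 over Col5a2 did not overlap between the tumor groups, at 0.853 to 0.950 with the control hairpin and 0.745 to 0.812 with the St3gal3 hairpin, which was not tested.

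In tumors, the St3gal3 hairpin went with lower levels of basement membrane collagen. Limma called 3 collagens, all lower and all of the basement membrane class, out of 5 tested in that class and 27 in all; over all tested genes 1.3% were called and 0.351% were called lower. The called genes were Col4a1 (ENSMUSG00000031502), Col4a5 (ENSMUSG00000031274) and Col18a1 (ENSMUSG00000001435). Limma called 0 of 8 fibrillar and 0 of 14 other collagens, of which 3 and 2 had an unadjusted p under 0.05, beside 18.6% of all tested genes.

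Col18a1 was at 302.19, 281.22 and 305.16 TPM in control tumors, against 220.51, 205.23 and 226.55 TPM in knockdown tumors. Every knockdown tumor was below every control tumor, and the change was -0.44 on the log2(TPM + 1) scale (SE 0.0607, limma adjusted p = 0.0289). Col4a1 was at 184.0, 174.32 and 210.78 TPM against 116.99, 121.07 and 139.08 TPM. These groups did not overlap either (log2 change -0.59, SE 0.0968, limma adjusted p = 0.0485). Col4a5 was at 36.76, 29.12 and 34.88 TPM against 20.02, 19.3 and 22.45 TPM, again without overlap (log2 change -0.68, SE 0.107, limma adjusted p = 0.0437).

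Col4a2 was at 103.74, 101.82 and 120.23 TPM in control tumors, against 70.94, 66.08 and 81.67 TPM in knockdown tumors. The groups did not overlap, but the change of -0.57 (SE 0.102) missed the threshold (limma adjusted p = 0.0579). Col4a2 thus missed the threshold that its head-to-head neighbour Col4a1 passed, with log2 changes of -0.57 and -0.59. Col15a1 overlapped between groups, at 31.31, 46.34 and 64.23 TPM against 22.96, 26.88 and 40.46 TPM (log2 change -0.62, SE 0.320, limma adjusted p = 0.363).

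The 3 calls did not outlast the loss of any single tumor library. In each of the 6 omissions limma called 0 collagens, and likewise with no filter on low genes. The log2 changes in the omissions stayed between -0.48 and -0.40 for Col18a1, -0.66 and -0.51 for Col4a1 and -0.77 and -0.61 for Col4a5. With all 4 groups in 1 fit the called collagens were Col3a1, Col4a5 and Col6a5. That fit called more of the 15381 tested genes, 398 higher and 201 lower, against 146 and 54 in the main fit.

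**Figure D4:**
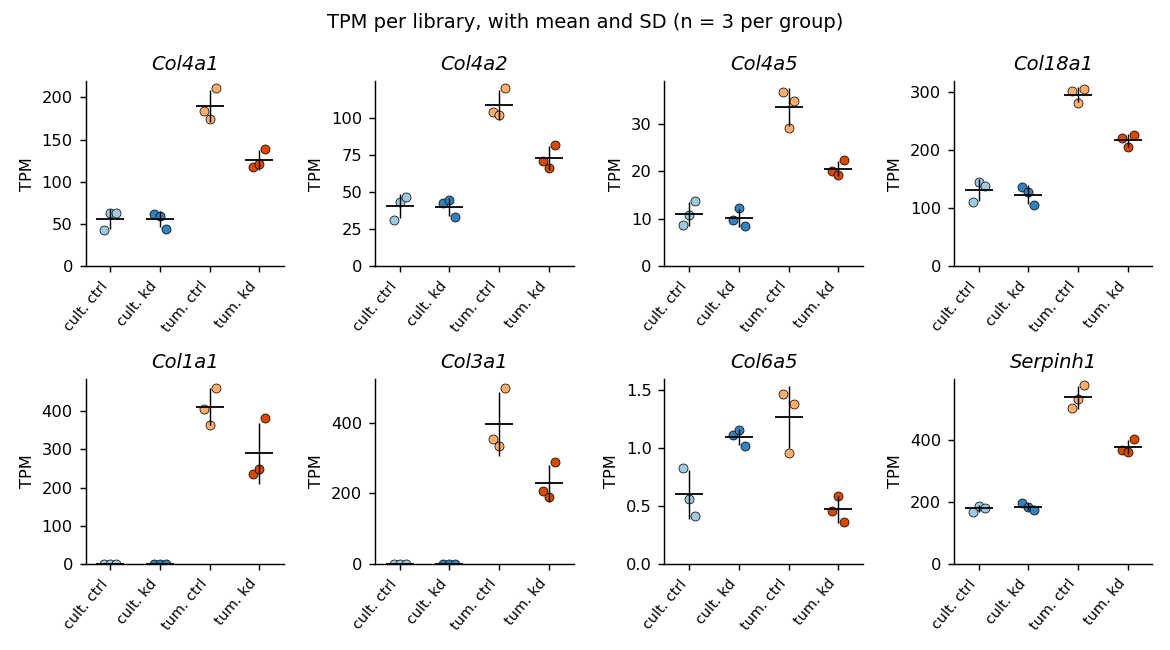
TPM in each library (points) with the mean and SD (n = 3) of each group, for the type IV chains, Col18a1, Col1a1, Col3a1, Col6a5 and Serpinh1, on axes that start at 0. The groups of tumors do not overlap for Col4a1, Col4a2, Col4a5, Col18a1, Col3a1, Col6a5 and Serpinh1, whereas the third knockdown tumor lies within the control range for Col1a1.

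Fibrillar genes were also at lower means in knockdown tumors, without passing the test. Col3a1 was at 207.85, 188.66 and 288.87 TPM, each below the control tumors (log2 change -0.79, SE 0.216, limma adjusted p = 0.144). Col1a1 was at 236.53, 248.7 and 381.45 TPM against 405.73, 364.29 and 460.84 TPM, and the third knockdown tumor overlapped the controls (log2 change -0.53, SE 0.198, limma adjusted p = 0.230). Col1a2 had the same order, at 209.61, 217.22 and 344.0 TPM against 345.71, 341.88 and 429.39 TPM (log2 change -0.56, limma adjusted p = 0.233).

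The type V chains had smaller log2 changes and overlapped between groups. Col5a1 was at 59.37, 59.5 and 70.08 TPM in control tumors, against 41.63, 45.15 and 64.49 TPM in knockdown tumors (log2 change -0.34, limma adjusted p = 0.333). Col5a2, the tail-to-tail neighbour of Col3a1, was at 62.47, 69.57 and 82.17 TPM against 51.27, 58.69 and 86.59 TPM (-0.15, limma adjusted p = 0.731), and Col5a3 at 52.34, 58.9 and 65.66 TPM against 51.02, 52.91 and 63.38 TPM (-0.079, limma adjusted p = 0.742). In all 3 genes the third knockdown tumor was the highest of its group. Col27a1, at 1.6 to 3.16 TPM in knockdown tumors, and Col11a2, at 0.81 to 1.42 TPM against 0.57 to 0.95 TPM, had log2 changes of -0.23 and -0.25.

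Among other collagens the type VI chains Col6a1, Col6a2 and Col6a3 had log2 changes of -0.30, -0.33 and -0.19 in tumors. In knockdown tumors Col6a1 was at 112.13, 133.57 and 164.12 TPM, Col6a2 at 84.3, 101.04 and 117.96 TPM, and Col6a3 at 68.04, 83.99 and 99.14 TPM, so the third knockdown tumor reached the control range for each chain. The minor chain Col6a5 was at 1.46, 0.96 and 1.38 TPM in control tumors, against 0.46, 0.59 and 0.36 TPM in knockdown tumors, without overlap (log2 change -0.62, SE 0.145, limma adjusted p = 0.0988). Col12a1 was at 82.2, 67.54 and 86.76 TPM against 57.96, 55.37 and 106.77 TPM, and the third knockdown tumor was the highest of all 6. Col16a1 was at 24.09, 24.47 and 28.89 TPM against 21.13, 21.8 and 27.7 TPM (log2 change -0.13). Col7a1 was at 31.39, 40.81 and 36.08 TPM against 27.27, 30.64 and 42.27 TPM (-0.13), and Col8a1 at 21.56, 21.43 and 16.45 TPM against 15.93, 12.56 and 18.67 TPM (-0.32). The groups of all 3 genes overlapped.

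The low members of the class were Col13a1, Col14a1, Col20a1, Col23a1, Col26a1 and Col6a4. Col20a1, at 2.19 to 2.68 TPM in control tumors, against 1.63 to 1.73 TPM in knockdown tumors, did not overlap between groups (log2 change -0.34, limma adjusted p = 0.183). Col13a1, a transmembrane collagen, was at 1.35 to 1.61 TPM against 1.07 to 1.28 TPM, also without overlap. Col14a1 was at 5.1 to 7.9 TPM against 2.36 to 7.28 TPM, Col26a1 at 0.76 to 1.61 TPM against 0.27 to 0.87 TPM, and Col6a4 at 0.7 to 1.53 TPM against 0.42 to 0.78 TPM, and these 3 overlapped. Col23a1, also a transmembrane collagen, was the single tested member that was higher on average, by 0.16 (SE 0.239, limma adjusted p = 0.752).

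Over the tested members, 26 of 27 log2 changes in tumors were negative, beside 9057 of all 15381 tested genes. Of these, Col11a2, Col26a1 and Col6a4 reached 1 TPM in control tumors only, so their lower mean follows from the filter and is no support. There were 8 members that were lower in every knockdown tumor than in every control tumor, beside 14.5% of all tested genes. No member was higher in every knockdown tumor, beside 9.38% of all tested genes. The median log2 change was -0.59 for basement membrane, -0.29 for fibrillar and -0.31 for other collagens, beside -0.047 for all tested genes. Members share tumors and are not independent, so these counts describe 6 libraries. The median over the 9 members that culture cells also express was -0.44.

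By summed level, knockdown tumors held 69.1% of the control mean for basement membrane collagens, 66.1% for type IV alone, 69.0% for fibrillar and 84.7% for other collagens. The basement membrane sum was 658.08, 632.86 and 735.35 TPM in control tumors, against 451.51, 438.61 and 510.27 TPM in knockdown tumors, without overlap. The fibrillar sum was 1286.23, 1233.67 and 1615.01 TPM against 801.79, 815.91 and 1235.13 TPM. Here the third knockdown tumor lay just above the second control tumor.

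**Figure D5:**
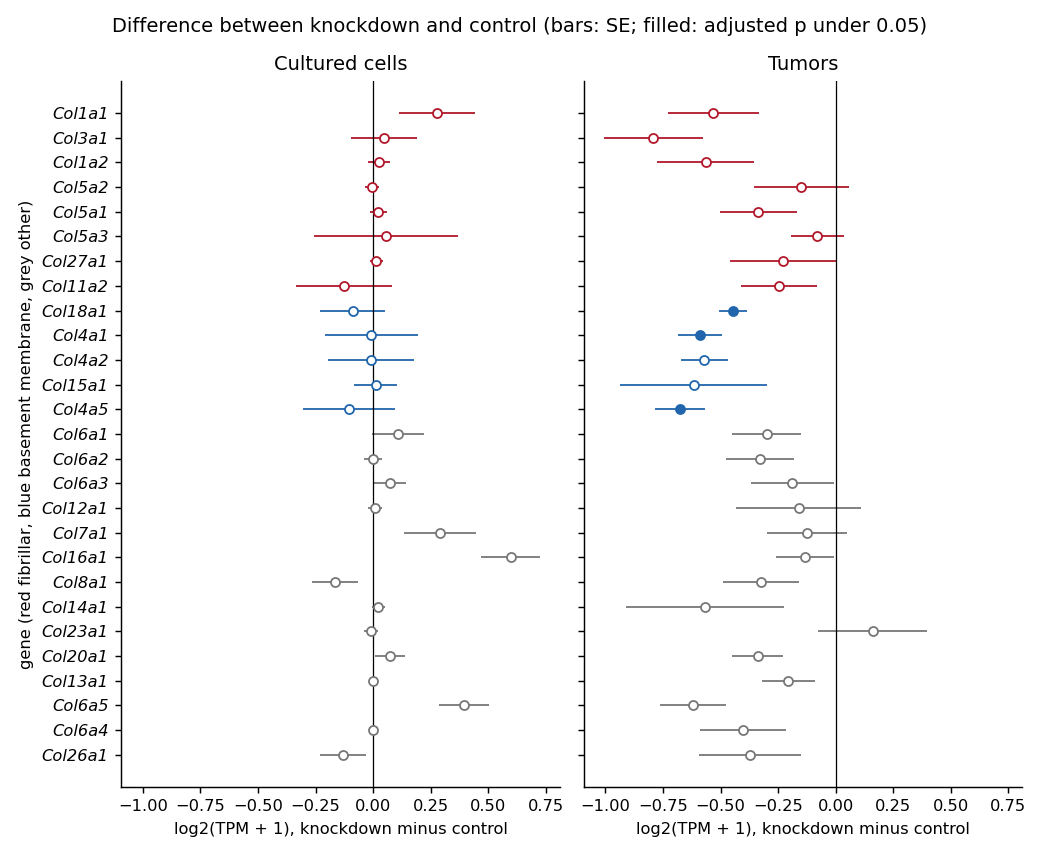
Knockdown minus control on the log2(TPM + 1) scale (horizontal axes) for each tested collagen in culture (left) and tumors (right); bars are SE, n = 3 libraries per group, and filled points passed a limma adjusted p of 0.05. In tumors 26 of 27 points lie below 0, beside 9057 of all 15381 tested genes, and the filled ones are Col18a1, Col4a1 and Col4a5. For Col11a2, Col26a1 and Col6a4, tested through control tumors only, a lower mean follows from the filter. In culture no point is filled.

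Markers of other cell types were summed in the same tumors. The 7 markers of mural cells, the pericytes and smooth muscle of vessels, summed to 51.1 to 65.4 TPM in control tumors, against 26.5 to 33.0 TPM in knockdown tumors. All 7 were at or above 1 TPM in both groups, and 2 of 7 were called lower (Rgs5 and Abcc9), beside 0.351% of all tested genes. Rgs5, Notch3, Kcnj8, Abcc9 and Higd1b were lower in every knockdown tumor, beside 14.5% of all tested genes, while Cspg4 and Myh11 overlapped. The 8 endothelial markers summed to 71.7 to 103 TPM against 51.8 to 74.9 TPM, with 0 called. Kdr and Esam were lower in every knockdown tumor, beside 14.5% of all tested genes, while the other endothelial markers overlapped. The 10 fibroblast markers summed to 424 to 552 TPM against 464 to 612 TPM, with 1 called lower (Fap), beside 0.351% of all tested genes. The largest parts of that sum were Postn, with means of 190 and 216 TPM, and Thy1, with means of 103 and 124 TPM. Fibroblast markers went both ways: the log2 changes of Pdgfrb, Dcn, Dpt and Fap were negative and those of the others positive (median 0.037). The 7 epithelial markers summed to 3230 to 3436 TPM against 2562 to 2829 TPM, with 0 called and Epcam and Krt7 below 1 TPM on average. Krt8, Krt18, Krt19 and Msln were lower in every knockdown tumor, beside 14.5% of all tested genes, while Cdh1 overlapped. The 5 leukocyte markers summed to 162 to 191 TPM against 178 to 213 TPM, with 0 called. Ptprc, Cd3e and Cd68 were higher in every knockdown tumor, beside 9.38% of all tested genes, while Csf1r and Itgam overlapped. The cartilage gene Acan was called lower, at 1.41, 2.71 and 1.49 TPM against 0.23, 0.14 and 0.2 TPM (log2 change -1.24, limma adjusted p = 0.0413). The other cartilage markers, Matn1, Matn3, Hapln1 and Chad, were too low to be tested, with tumor group means of at most 0.143 TPM and overlapping groups. The part of these cell types in the collagen differences was not tested.

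The 12 skeletal muscle markers summed to 3.49, 16.21 and 4.55 TPM in control tumors, against 97.47, 16.14 and 78.89 TPM in knockdown tumors. Knockdown tumors 1 and 3 were thus high in muscle markers. Their part in the result was not tested, as a fit without them leaves 1 knockdown tumor. Cultured cells, by contrast, had at most 0.16 TPM of summed mural and 0.79 TPM of summed endothelial markers. The fibroblast markers, however, summed to 40.2 to 53.0 TPM in culture, where only Twist1 and Prrx1 reached 1 TPM on average, so that list is not particular to host cells.

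In culture the hairpin comparison gave no collagen call. Limma called 0 of the 27 tested members, beside 0.0325% of all tested genes, and 2 had an unadjusted p under 0.05. Those were Col16a1, at 3.59, 3.73 and 4.61 TPM against 7.08, 5.75 and 6.75 TPM (log2 difference 0.60, SE 0.127, limma adjusted p = 0.816), and Col6a5, at 0.83, 0.56 and 0.41 TPM against 1.11, 1.15 and 1.02 TPM (0.40, SE 0.110, limma adjusted p = 1). Both were higher in every knockdown culture than in every control culture, as were 4.82% of all tested genes.

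For the genes called in tumors, and Col4a2, the culture groups overlapped. The log2 differences there were -0.089 (SE 0.143) for Col18a1, -0.0074 (SE 0.201) for Col4a1, -0.0097 (SE 0.186) for Col4a2 and -0.11 (SE 0.200) for Col4a5, each with a limma adjusted p of 1. Each of these 4 values was smaller than its standard error, and the standard errors were larger than those in tumors. Over the 9 culture-expressed members the median was -0.0074.

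The difference between the tumor and the culture knockdown effect was tested as an interaction over all 12 libraries. Limma called 0 of 27 collagens, beside 0.767% of all tested genes, while 10 of 27 had an unadjusted p under 0.05, beside 11.1% of all tested genes. Thus the lower type IV and Col18a1 levels were not shown to be particular to tumors: the interaction was -0.58 (SE 0.231) for Col4a1, -0.56 (SE 0.218) for Col4a2, -0.57 (SE 0.233) for Col4a5 and -0.36 (SE 0.158) for Col18a1, with limma adjusted p values of 0.358, 0.345, 0.375 and 0.429. Col6a5 came nearest, at -1.02 (SE 0.210, limma adjusted p = 0.0535), as its level was higher with the knockdown in culture and lower in tumors. Its mean reached 1 TPM only in knockdown culture and control tumors, so the filter kept it through the groups where it was high.

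The genes that make, process, bind and degrade collagen were examined in 8 lists with 59 genes, of which 55 were tested. In tumors 1 of the 55 (1.82%) was called, a share near the 1.3% of all tested genes. It was called lower and is Serpinh1 (ENSMUSG00000070436), which encodes the collagen chaperone HSP47 of the endoplasmic reticulum. It was at 503.98, 533.09 and 578.35 TPM in control tumors, against 370.12, 362.29 and 403.49 TPM in knockdown tumors, without overlap (log2 change -0.51, SE 0.0701, limma adjusted p = 0.0301). In culture it was at 169.55 to 189.24 TPM and 173.74 to 196.06 TPM, and the interaction was called (-0.55, SE 0.101, limma adjusted p = 0.0333). The tumor call was lost in 5 of 6 omissions and kept without control tumor 1.

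For the other processing genes the values of abundant members are given by role. Of the 12 tested genes that hydroxylate and glycosylate chains, P4hb, the beta subunit of prolyl 4-hydroxylase, was the most abundant and was at 902.44 to 969.17 TPM in control tumors, against 757.45 to 792.61 TPM in knockdown tumors (log2 change -0.27, limma adjusted p = 0.0539). Among the folding and export genes, Ppib, a prolyl isomerase of the endoplasmic reticulum, was at 588.94 to 642.52 TPM against 603.97 to 649.6 TPM. Sparc, a collagen-binding protein of the folding and export list, was at 717.53 to 866.55 TPM against 581.36 to 673.63 TPM. It was lower in every knockdown tumor and was not called (log2 change -0.33, limma adjusted p = 0.147). Among proteases, Mmp9, a gelatinase, was at 491.72, 508.41 and 456.57 TPM against 228.58, 328.35 and 304.37 TPM (log2 change -0.77, limma adjusted p = 0.0554), and Mmp13, a collagenase, was at 431.61 to 492.14 TPM against 541.97 to 672.21 TPM (0.39, limma adjusted p = 0.103). These 2 proteases differed in opposite directions, and neither passed.

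The median log2 change in tumors was -0.31 for 7 degrading proteases and uptake genes, -0.27 for 7 folding and export genes and -0.23 for the 12 hydroxylation and glycosylation genes, beside -0.047 for all tested genes. It was 0.049 for 6 tested propeptide cleavage genes, -0.11 for 5 crosslinking genes, 0.013 for 6 fibril-associated proteoglycans, -0.081 for 8 collagen receptors and -0.065 for Tgfb1, Tgfb2, Tgfb3 and Ccn2. Bgn, a small proteoglycan of fibrils, was at 993.09 to 1154.55 TPM in control tumors, against 894.29 to 1037.86 TPM in knockdown tumors, and Loxl2, a lysyl oxidase that crosslinks type IV collagen, was at 114.5 to 129.66 TPM against 107.08 to 121.9 TPM. Itgb1, the beta subunit of collagen-binding integrins, was at 294.94 to 328.35 TPM against 277.64 to 311.45 TPM, and Tgfb1, a growth factor that induces collagen genes, was at 243.35 to 293.62 TPM against 242.5 to 262.37 TPM. The groups overlapped for all 4 genes.

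Between culture and tumors, limma called 46 of the 55 genes higher and 3 lower with either hairpin, beside 38.5% and 23.9% of all tested genes with the control hairpin and 34.6% and 26.9% with the St3gal3 hairpin. Of the 55 genes, 18 reached 1 TPM in tumors only, for which a difference follows from the filter. HM1 cells nonetheless expressed much of this set in culture, where fibrillar chains were near 0. Pcolce, which speeds the trimming of fibrillar procollagens, was at 313.35 to 342.3 TPM in control culture and 287.79 to 299.12 TPM in control tumors. Itga10, the alpha subunit of a collagen-binding integrin, was 1 of the 3 lower genes, at 52.97, 72.1 and 74.62 TPM in control culture and 4.33, 3.93 and 4.59 TPM in control tumors.

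The 17 members that were not tested had group means below 1 TPM throughout. Col19a1 was listed at 0 in all 12 libraries. The type IV chains Col4a3, Col4a4 and Col4a6 had group means of at most 0.04 TPM, although Col4a6 lies head to head with Col4a5. The cartilage collagens Col2a1, Col9a1, Col9a2, Col9a3, Col10a1 and Col11a1 had group means from 0 to 0.993 TPM. The others were Col17a1, Col22a1, Col24a1, Col25a1, Col28a1, Col6a6 and Col8a2. Just outside the threshold were Col9a3 (highest group mean 0.993 TPM) and Col8a2 (0.95 TPM), and just inside were Col26a1 (1.05 TPM), Col11a2 (1.05 TPM) and Col6a4 (1.08 TPM).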

How the data were processed

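Total RNA of 12 libraries (TRIzol, DNase) had been sequenced. The deposited values are TPM, a length-normalised unit that the authors computed; per the submitters' processing notes, fastp, HISAT, RSEM and build GRCm39 were used, without stated roles or versions. TPM keeps no depth, so no counting interval or count test was used. There were 56061 genes in each culture file and 55878 in each tumor file, and 55416 shared Ensembl identifiers were kept.

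Values were tested as log2(TPM + 1) with limma 3.58.1 (R 4.3.3; trend and robust options) over the 15381 genes with a group mean of at least 1 TPM, with Benjamini-Hochberg adjustment over all of them and a threshold of 0.05. Fold changes on this scale understate changes of low genes. Comparisons across tissues and the interaction used TPM rescaled over the shared genes. Tested members are named with values, with every library for those at 10 TPM or more in a group, and each processing list is named by its called and most abundant genes. The collagen members, classes and lists were chosen with earlier results of these data known.

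Checked on simulated data with 200 changed genes, the tumor comparison recovered 91% of changes of log2 1 and 98% of log2 2 over 15258 genes. It made 8 false calls. The interaction recovered 76% and 98% over 15213 genes and made 33 false calls. Changes below log2 1, such as those of the called collagens in tumors, were not simulated, so these shares do not describe them. The changed genes were drawn only from genes with simulated means well above 1 TPM in every group, so low genes are not described either. Pairs with the same replicate number had correlations of deviations of -0.154 to 0.047 (0 of 6 over 0.1), and pairs of different number -0.143 to 0.154. With so few libraries this cannot exclude a pairing that the labels do not state. Promoter sequences are from RefSeq (GRCm38.p6). The alternatives tried were the pseudocount, the filter, the scaling, all 4 groups in 1 fit, a replicate block and omission of libraries.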

Additional observations from a re-analysis of the deposited data

Results flagged for a closer look

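Col6a5 moved in opposite directions in culture and tumors, with every library on its own side. Knockdown cultures were at 1.11, 1.15 and 1.02 TPM against 0.83, 0.56 and 0.41 TPM in control cultures, and knockdown tumors were at 0.46, 0.59 and 0.36 TPM against 1.46, 0.96 and 1.38 TPM in control tumors. The tumor effect minus the culture effect was -1.02 on the log2(TPM + 1) scale, and its limma adjusted p of 0.0535 missed the threshold. Over 20 alternatives that p ranged from 0.0299 to 0.213 and passed in 2. All these levels lie near 1 TPM. The mean of Col6a5 reached 1 TPM only in knockdown culture (1.09 TPM) and control tumors (1.27 TPM). The filter thus kept it through the groups where it was high, and the crossed directions are no support.

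Serpinh1 passed the test of the difference between tissues. The tumor effect minus the culture effect was -0.55 (SE 0.101, limma adjusted p = 0.0333), and the p ranged from 0.0159 to 0.0948 over 20 alternatives, of which 7 passed. In tumors all 3 knockdown values were below all 3 control values, and in culture the groups overlapped.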

How the results depend on the processing

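In tumors the number of called collagens (limma adjusted p under 0.05) went from 3 to 0 with no filter on low genes and with a replicate block. It was also 0 whenever 1 library was left out. Over all genes the calls in tumors went from 200 to 96 with no filter and 350 with 1 TPM required in 3 libraries. The block gave 1, 4 groups in 1 fit gave 599 and omissions of 1 library gave 8 to 162, cause not tested. In culture the calls over all genes went from 5 to 19 with a pseudocount of 0.1 and 8 with 1 TPM in 3 libraries. These calls were 8 with 4 groups in 1 fit, 0 with the block and 4 to 17 in the omissions. For the difference they went from 118 to 26 with a pseudocount of 0.1, 66 with the block, 183 with quantile normalization and 68 to 161 in the omissions. For the difference, 1 collagen (Col6a5) was called with 1 TPM in 3 libraries, and 0 to 1 in the omissions (Col6a5 without control tumor 2, Col1a2 without knockdown tumor 3).

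The class medians moved with the pseudocount, which sets the scale of low values, with the filter, which sets the genes included, and with quantile normalization. For knockdown against control in culture the fibrillar median (0.025) was 0.14 with a pseudocount of 0.1, 0.057 with a filter on the groups in the fit and 0.057 with 1 TPM in 3 libraries, and 0.00087 to 0.031 in the omissions; that of other collagens (0.016) was 0.14, 0.34 and 0.34. For control tumors against culture the fibrillar median was 9.18 with a pseudocount of 0.1, 3.81 with no filter and 5.69 with quantile normalization, and that of other collagens 4.08, 0.90 and 1.11, and 2.42 with 1 TPM in 3 libraries. With the St3gal3 hairpin these were 8.86 and 3.67 for fibrillar, and for other collagens 3.48 with a pseudocount of 0.1, 1.90 with a filter on the groups in the fit, 0.61 with no filter, 1.90 with 1 TPM in 3 libraries and 1.08 with quantile normalization.

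The median of all genes between control tumors and culture was 0.17, 0.058 with median-of-ratios scaling and -0.060 with quantile normalization, and 0.078, 0.049 and -0.10 with the St3gal3 hairpin. Of the calls, 61.7% were higher in control tumors, 54.2% with median-of-ratios and 45.4% with quantile; with the St3gal3 hairpin 56.3% and, with quantile, 43.4%.

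Some single genes changed sign. In culture, leaving out 1 library gave -0.21 to 0.022 for Col18a1, -0.19 to 0.14 for Col4a1 (0.088 and 0.082 without control culture 2 and 3), -0.18 to 0.12 for Col4a2 (0.046 and 0.10) and -0.26 to 0.046 for Col4a5. In tumors it gave -0.37 to 0.0071 for Col5a2, -0.46 to 0.0058 for Col12a1 and -0.30 to 0.0042 for Col7a1. For the difference it gave -0.36 to 0.012 for Col5a2 and -0.45 to 0.044 for Col5a3 (0.035 without knockdown culture 2). Between tumors and culture, Col6a5 with the control hairpin went from 0.50, which was called, to -0.42 with quantile normalization, and Col8a1, with the St3gal3 hairpin, at -0.072 with quantile normalization, -0.23 without knockdown tumors 1 and 3, and -0.075 to 0.19 in the omissions (-0.014 without knockdown culture 3). Of 303 values of 19 collagens under alternatives in tumors, 265 kept their direction and side of the threshold, 29 lost the call, 6 gained it and 3 changed sign. Because depth is unknown, what it limits could not be stated.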
